A study of Mus musculus with 109 samples.

Results

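Messenger RNA of 8 genes that act when young granule neurons leave the germinal zone of the cerebellum, Siah1a, Siah2, Pard3, Pard6a, Jam3, Zeb1, Zeb2 and Cdc42, was followed through single cells of the neonatal mouse cerebellum. The genes were taken by symbol from the 15973 genes of the deposited count table, and all 8 were listed. The table held 109 cells from C57BL/6 mice at postnatal day 7 (P7), enriched for granule cell progenitors (GCPs) on a Percoll density gradient, captured singly in C1 Fluidigm chips and sequenced as Smart-seq libraries. The labels give no treatment and no genetic change in any group. Sample titles placed the cells in 6 library groups of 18 or 19 cells, numbered 1 to 6 here in the order of the samples, and these groups served as the replicates. The animals behind each cell are not named in the labels, so p-values measure the spread between library groups, which may be technical.

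Cells were classed by Mki67, a marker of dividing cells, in CPM (a cell's counts scaled to a common total of 1000000). There were 32 Mki67-high cells (at least 100 CPM), 75 Mki67-low cells (under 10 CPM) and 2 cells between. The Mki67-low cells were divided at their median level of Dcx, a microtubule protein of young migrating neurons, into 37 Dcx-high and 38 Dcx-low cells. The cells nearest to the limits had 132 CPM of Mki67 in the high class and 9.27 CPM in the low class, and 1935 and 1781 CPM of Dcx on either side of the median. Mki67 and Dcx were therefore not tested in the comparisons they define. As a check of the classes, 5 of 8 GCP genes, Ccnd2, Pcna, Gli2, Top2a and Ccnd1, had a higher mean log2(CPM + 1) in Mki67-high cells in 6 of 6 library groups, and Atoh1, Gli1 and Sfrp1 did in 5 of 6. Of 6 granule neuron genes, 1 was lower in 6 of 6, the neuronal tubulin Tubb3, while Cntn2, Nrcam and Sema6a were lower in 5 of 6 and Neurod1 and Rbfox3 in 4 of 6. Of the 8169 genes with a count in at least 20% of cells, 10.2% had the same sign in 6 of 6. The summed level of 6 granule lineage genes exceeded 500 CPM in 102 of 109 cells.

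Genes of other cell types were found as well. At least 5 of 8 astroglial genes reached 50 CPM in 4 cells, of which 3 were Mki67-high. These 3 also held 2130, 2996 and 3627 CPM of summed granule lineage genes, and the Mki67-low one held 27.0 CPM. A further 4 cells carried at least 3 of 7 oligodendrocyte lineage genes at 50 CPM, with 25.1 to 2014 CPM of granule lineage genes. They are called astroglial and oligodendrocyte lineage cells below for short, and whether they hold RNA of more than 1 cell was not tested. By their summed level, the astroglial genes passed 500 CPM in 33 cells (11 of 32 Mki67-high and 22 of 75 Mki67-low) and the oligodendrocyte lineage genes in 23 cells (9 and 14). Summed genes of inhibitory interneurons passed that level in 9 cells, of which 8 were Dcx-high. No cell passed 500 CPM for endothelial, pericyte and meningeal or Purkinje cell genes, and 2 Mki67-high cells did for microglial genes. Totals ran from 15071 to 8616017 counts per cell, and the lowest belonged to a cell between the classes. Mki67-high cells had more genes with a count than Mki67-low cells in 6 of 6 library groups (5363 against 4281 on average).

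The 8 genes form a pathway that has been worked out mostly at the level of protein. Siah1a and Siah2 are ubiquitin ligases, and Siah2 marks the polarity protein Pard3 for degradation in progenitors, which keeps them in the germinal zone. Pard3 and Pard6a are scaffolds of the partitioning-defective (Par) complex, which binds the small GTPase Cdc42. Jam3 encodes the junctional adhesion molecule JAM-C, which Pard3 brings to the cell surface as young neurons leave for the molecular layer. Zeb1 and its relative Zeb2 are zinc finger repressors that bind E-box sequences, and Zeb1 holds down polarity genes in progenitors. Counts of RNA do not show ubiquitination, protein level or surface adhesion.

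Because Zeb1 binds the E-box CACCTG, promoter windows of the genes were searched for it on both strands. The windows, from RefSeq on GRCm38.p6, run from 250 bases before to 50 bases after an annotated start. Windows were given for 5 of the 8 genes, Siah1a, Pard3, Pard6a, Zeb2 and Cdc42, 10 in all. The motif was in 2 windows, 1 of Pard3 and 1 of Pard6a, and 20.2% of all 32851 windows held it. The sequences are shown because these polarity genes are the ones with the motif, and capitals mark it.
Pard3 (second of its annotated starts, chr8:127299362-127299661, + strand): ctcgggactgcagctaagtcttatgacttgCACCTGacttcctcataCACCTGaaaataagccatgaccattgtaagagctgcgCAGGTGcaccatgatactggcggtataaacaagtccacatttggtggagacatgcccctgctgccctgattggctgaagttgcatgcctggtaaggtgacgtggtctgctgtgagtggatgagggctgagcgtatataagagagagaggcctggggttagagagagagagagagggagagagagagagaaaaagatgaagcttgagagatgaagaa
Pard6a (second of its annotated starts, chr8:105701397-105701696, + strand): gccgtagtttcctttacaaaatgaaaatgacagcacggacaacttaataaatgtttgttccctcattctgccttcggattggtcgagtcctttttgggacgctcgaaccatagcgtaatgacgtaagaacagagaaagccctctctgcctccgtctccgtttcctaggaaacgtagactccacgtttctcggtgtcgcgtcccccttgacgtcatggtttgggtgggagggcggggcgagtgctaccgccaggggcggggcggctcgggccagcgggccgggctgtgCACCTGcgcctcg
With the annotated start as +1, the motif began at -220, -203 and -166 in the window of Pard3 and at 38 in that of Pard6a. Of all windows, 0.365% held at least 3 copies. The second annotated start of Pard3 lies within the gene, and counts per gene do not tell which start was used. The windows at the first annotated starts of Pard3 and Pard6a, and those of Siah1a, Zeb2 and Cdc42, did not hold these letters.

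The genes differed in the number of cells that held them. Cdc42 had at least 1 count in 105 of 109 cells, Zeb1 in 85 and Zeb2 in 74. Siah1a had a count in 51 cells, Pard3 in 40, Pard6a in 35, Siah2 in 31 and Jam3 in 27. With a minimum of 5 counts the numbers of cells were 87 for Cdc42, 63 for Zeb1, 49 for Zeb2, 39 for Siah1a, 21 for Pard3, 20 for Pard6a, 18 for Jam3 and 15 for Siah2. Of the cells with Siah2, Pard3 and Pard6a, 16, 19 and 15 therefore held only 1 to 4 counts. In a cell of median depth (3604792 counts) a count of 0 allows a level of up to 0.832 CPM (3 counts, counting error only), and RNA lost before amplification cannot be told apart from RNA that was absent.

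**Figure D1:**
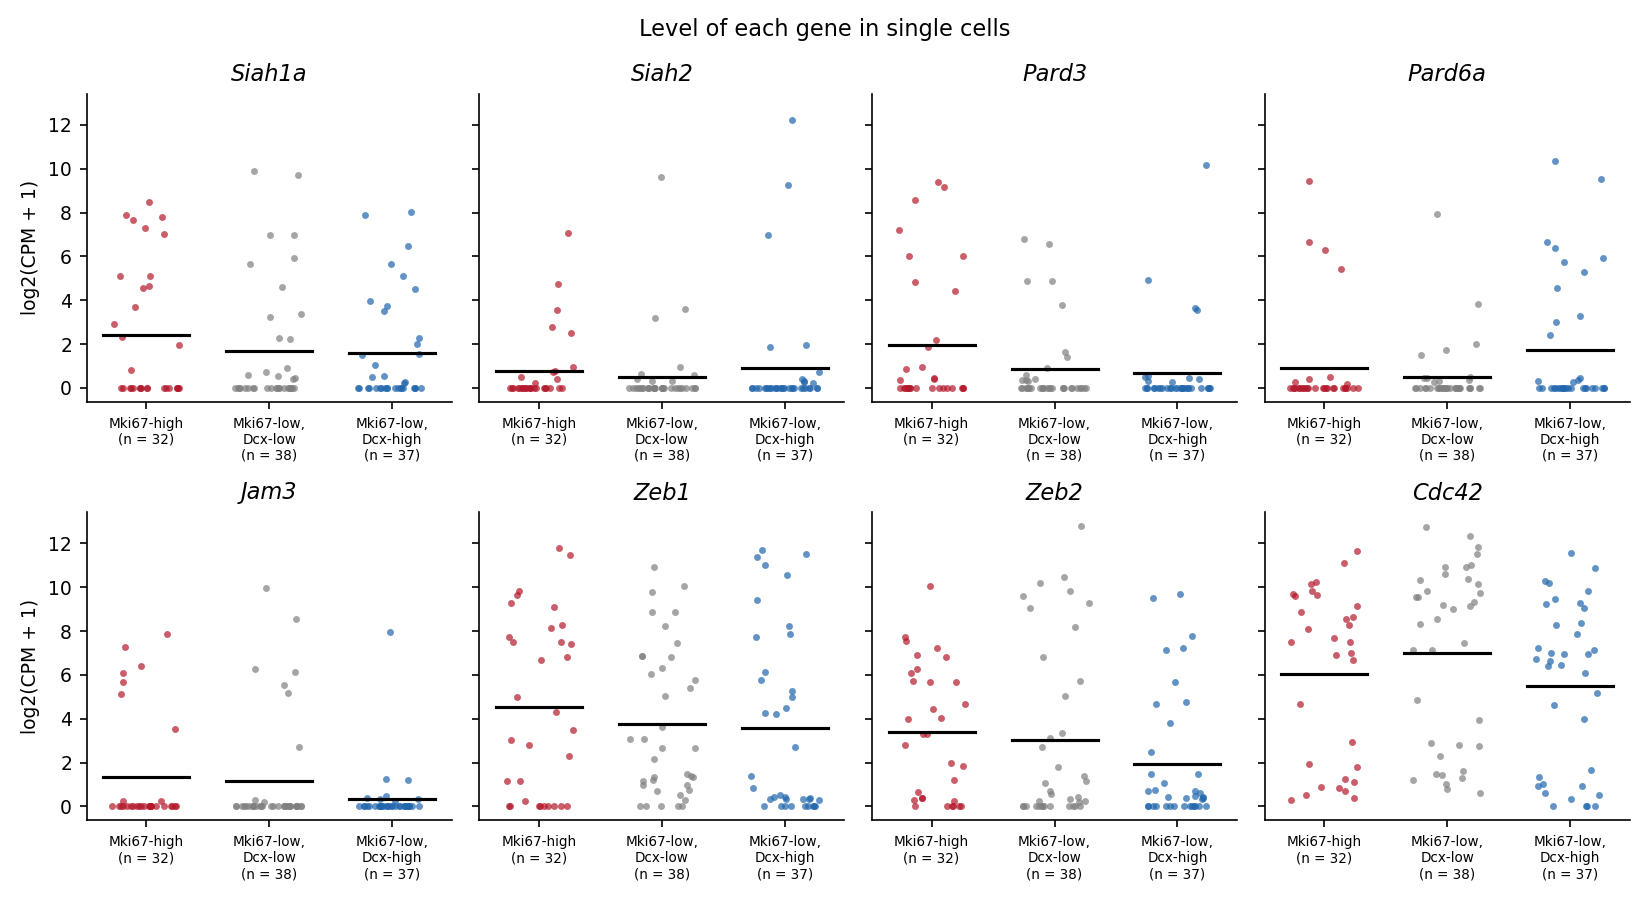
Level of each gene as log2(CPM + 1) in each of 32 Mki67-high, 38 Mki67-low Dcx-low and 37 Mki67-low Dcx-high cells (points), with the mean over cells as a bar. Siah2, Pard3, Pard6a and Jam3 lie at 0 in most cells of every class with a few cells far above, while Cdc42 is spread over the whole scale in every class.

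Where a gene was present it could be abundant. The highest levels were 7077 CPM for Zeb2, 6767 CPM for Cdc42, 4833 CPM for Siah2, 3511 CPM for Zeb1, 1314 CPM for Pard6a, 1164 CPM for Pard3, 987 CPM for Jam3 and 936 CPM for Siah1a. The top Zeb1 cell was among the oligodendrocyte lineage cells. A single cell held 53.2% of all Siah2 counts, and the 5 cells with the most Siah2 counts held 97.2%. That cell, a Dcx-high cell of library group 2 with 5154 CPM of Dcx and no Mki67 count, was also the cell with the highest Pard6a. For the other genes the top cell held between 10.9% (Cdc42) and 32.01% (Jam3) of all counts. For this reason means of log2(CPM + 1) and percentages of cells are given beside the mean CPM.

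Per length of merged exons, Cdc42 had the highest level, at 200.6 ± 60.0 CPM per kb (mean ± SD of 6 library group means). Zeb1 followed at 27.6 ± 14.1, Siah1a at 21.9 ± 9.46, Pard6a at 21.1 ± 28.1 and Siah2 at 20.1 ± 35.8 CPM per kb. Zeb2 had 7.87 ± 8.83, Jam3 7.13 ± 10.9 and Pard3 2.58 ± 2.27 CPM per kb. Cdc42 lay above Zeb1 in 6 of 6 library groups. Each other neighbour in this order lay above the next in 2 to 4 of 6 library groups, so their order is not set beyond the spread.

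The positions below are those of GENCODE M21 on GRCm38 (mm10), the build of the alignment. Siah1a (chr8:86724007-86745934, minus strand) shares 23.6% of the 50-base stretches of its transcripts with transcripts of other genes, mainly a pseudogene and its paralogue Siah1b, so its counts are uncertain. Jam3 (chr9:27097384-27155421, minus strand) has an antisense gene over 36.2% of its exon bases, and reads of the 2 cannot be told apart without strand. In Siah2 (chr3:58674938-58692400, minus strand), Pard3 (chr8:127063893-127612286, plus strand) and Pard6a (chr8:105701148-105703496, plus strand) no such stretch was shared. Cdc42 (chr4:137319696-137357720, minus strand) and Zeb2 (chr2:44983632-45117395, minus strand) shared 2.19% and 2.26%. Zeb1 (chr18:5591860-5775467, plus strand) shared 1.76%.

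Low counts were unevenly spread over the library groups. Of the cells with under 5 counts of Siah2, 14 of 46 had 1 to 4 counts in the 3 library groups that also held a cell with at least 500 Siah2 counts, and 2 of 48 did in the other 3. For Pard6a the numbers were 13 of 56 and 2 of 33, for Pard3 14 of 58 and 5 of 30, and for Jam3 4 of 28 and 5 of 63. For Siah1a they went the other way, 9 of 58 and 3 of 12. Zeb1, Zeb2 and Cdc42 had such a cell in every library group. Percentages of cells with at least 1 count are therefore set beside those with at least 5 counts, and the part of these low counts in the results was not tested.

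**Figure D2:**
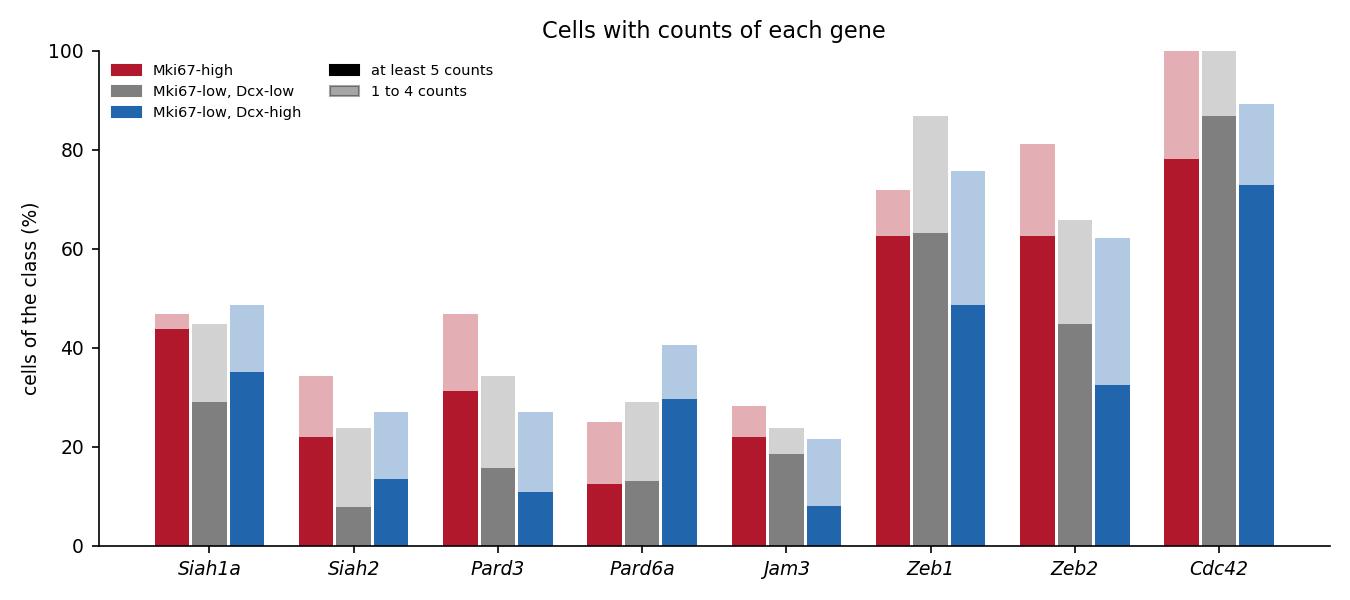
Percentage of the cells of each class with at least 5 counts (solid) and with 1 to 4 counts (pale) of each gene, over 32 Mki67-high, 38 Mki67-low Dcx-low and 37 Mki67-low Dcx-high cells. Cdc42 has counts in nearly all cells, and over all 109 cells 1 to 4 counts were most frequent for Zeb2 (25 cells) and Zeb1 (22 cells).

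The first comparison asked whether Mki67-high and Mki67-low cells differ in these genes. The classes overlap in GCP genes, so it does not set progenitors against non-dividing cells. The summed level of the 8 GCP genes passed 500 CPM in 31 of 32 Mki67-high and in 36 of 75 Mki67-low cells. Top2a reached 100 CPM in 24 and 10 of these cells. None of the 8 genes was called between Mki67-high and Mki67-low cells in sums of counts per library group (edgeR quasi-likelihood test, adjusted p from 0.715 for Siah2 to 0.997 for Siah1a). In that test 2 of 9084 genes were called (0.022%), Tacc3 and Cdc20, both mitotic genes and higher in Mki67-high cells, and 666 genes had an unadjusted p under 0.05. DESeq2 called 372 genes on the same sums (2.33% of 15972), and none of the 8 was among them, with Siah2 lowest at an adjusted p of 0.171. The coefficient of variation between library groups was 171.5%, so log2 fold changes carried standard errors of 0.54 (Cdc42) to 2.14 (Pard6a), and the lack of calls does not show that the genes were alike in the classes.

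On the scale of mean log2(CPM + 1), where each cell weighs the same, no gene of the 8 had the same sign in 6 of 6 library groups, against 10.2% of the 8169 genes given above. The median difference of the 8 genes was 0.52 and that of all genes 0.43, both higher in Mki67-high cells. The exact two-sided sign-flip test over 6 library groups cannot give a p under 0.03125. The range of the 6 differences is given as the interval of each difference. Its coverage of 96.875% holds for the median difference, and for the mean only where the differences are symmetric.

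Among the ubiquitin ligases, Siah1a ran from 0 over a median of 0 to 357 CPM in the 32 Mki67-high cells and from 0 over a median of 0 to 936 CPM in the 75 Mki67-low cells. The cell at 357 CPM was among those with astroglial genes and also held 2996 CPM of granule lineage genes. Siah1a counts were found in 46.9% of Mki67-high and 46.7% of Mki67-low cells. The difference in mean log2(CPM + 1) was 0.34 ± 1.83 (SD, n = 6 library groups; range -2.27 to 2.09), higher in 3 groups and lower in 3. The classes overlapped throughout, and the difference was not detectable (exact p = 0.688).

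Siah2 reached 132 CPM in Mki67-high cells and 4833 CPM in Mki67-low cells, with a median of 0 in both. Its mean was 5.70 CPM in Mki67-high and 84.9 CPM in Mki67-low cells, but 20.7 CPM in the latter without the top cell. The sums gave a log2 fold change of -3.60 ± 1.97 (SE), which was not called (edgeR adjusted p = 0.715) and ran from -1.74 without library group 2, which holds the top cell, to -5.87 without group 6. The mean log2(CPM + 1) differed by 0.03 ± 1.11 (range -1.46 to 1.87).

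By number of cells, Siah2 pointed the other way from its sums. At least 1 count was found in 38.5% ± 17.95 of Mki67-high and 25.0% ± 14.9 of Mki67-low cells (mean ± SD of 6 library groups), higher in 6 of 6 groups by 2.50 to 26.7 percentage points (mean 13.5, exact sign-flip p = 0.03125, adjusted over all genes 0.407). Of all genes, 6.71% were higher in 6 of 6 groups by this measure. In cells these are 11 of 32 and 19 of 75, and in 5 of the 6 groups the Mki67-high class held 2 cells or fewer with a count. With at least 5 counts the difference was 9.69 points (higher in 4 of 6, exact p = 0.438), and with counts thinned to 1110182 per cell it was 11.2 points (5 of 6, exact p = 0.156; background 7.03% higher in 6 of 6). Without the 4 cells that carried astroglial genes it was 7.38 points (exact p = 0.25).

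Of the Par complex genes, Pard3 had the largest difference in mean log2(CPM + 1) between Mki67 classes. It ran from 0 to 677 CPM in Mki67-high cells and from 0 to 1164 CPM in Mki67-low cells, with medians of 0. The difference was 1.33 ± 2.23 (range -1.36 to 4.30), higher in Mki67-high cells in 4 of 6 library groups (exact p = 0.219). At least 5 Pard3 counts were found in 10 of 32 Mki67-high and 10 of 75 Mki67-low cells, a mean difference of 21.6 points with a range from -26.7 to 66.7 (exact p = 0.25). Library groups 2 and 6 carried the difference, with 3.59 and 4.30, and the other 4 lay between -1.36 and 1.45.

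Pard6a ran from 0 to 682 CPM in Mki67-high and from 0 to 1314 CPM in Mki67-low cells, again with medians of 0. It had at least 1 count in 8 of 32 Mki67-high and 26 of 75 Mki67-low cells. The difference in mean log2(CPM + 1) was -0.29 ± 1.80 (range -2.48 to 1.996), lower in 4 of 6 library groups (exact p = 0.656). In library groups 1, 2, 4 and 5 no Mki67-high cell had a Pard6a count, while groups 3 and 6 had means of 90.6 and 35.5 CPM.

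Jam3 ran from 0 to 232 CPM in Mki67-high and from 0 to 987 CPM in Mki67-low cells, with medians of 0. The difference in mean log2(CPM + 1) was 0.69 ± 1.02 (range -0.72 to 1.97), higher in 4 of 6 groups (exact p = 0.188). Counts of Jam3 were found in 28.1% of Mki67-high and 22.7% of Mki67-low cells.

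Cdc42 had the smallest standard error of the 8 genes in the sums. It ran from 0.221 over a median of 182 to 3164 CPM in Mki67-high cells and from 0 over a median of 137 to 6767 CPM in Mki67-low cells. Counts were found in 32 of 32 and 71 of 75 cells. The sums gave a log2 fold change of -0.48 ± 0.54 (SE; edgeR adjusted p = 0.880), and the mean log2(CPM + 1) differed by 0.26 ± 1.52 (range -1.68 to 1.65; exact p = 0.688).

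**Figure D3:**
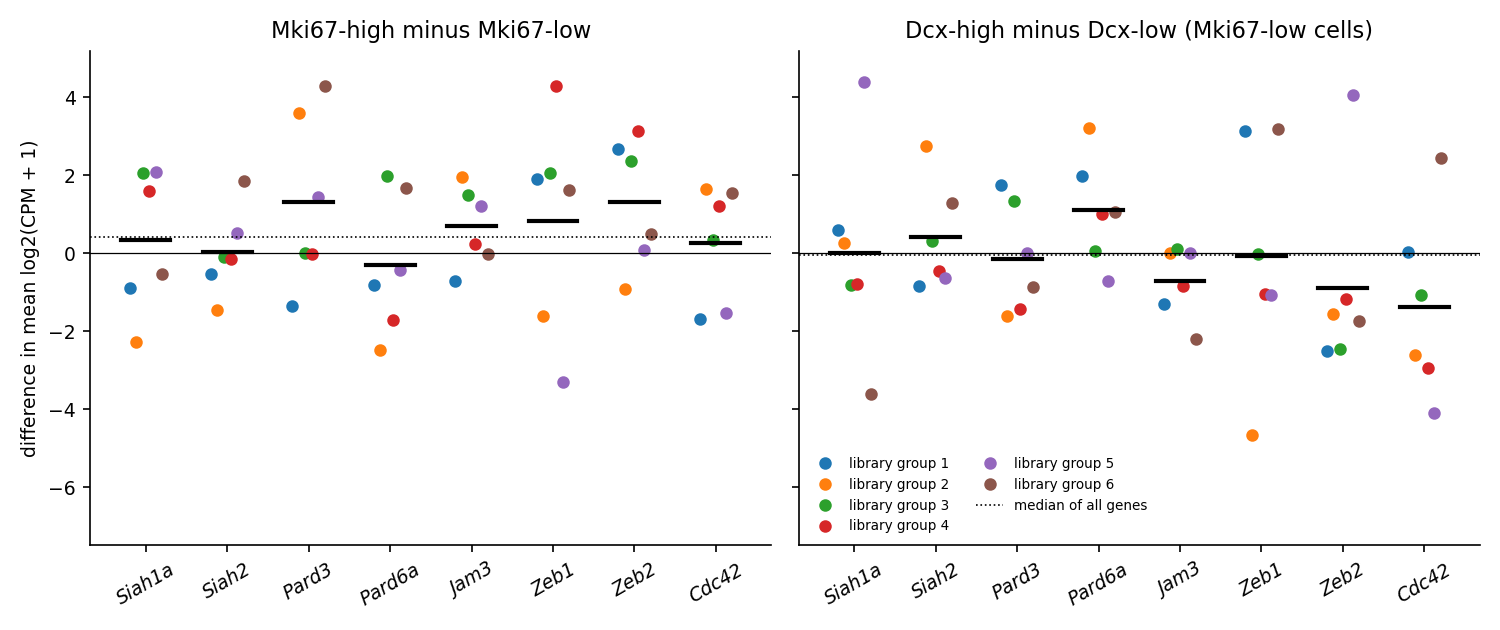
Difference in mean log2(CPM + 1) of each gene in each of 6 library groups (points), Mki67-high minus Mki67-low cells on the left and Dcx-high minus Dcx-low cells among Mki67-low cells on the right, with the mean of the 6 as a bar and the median of all genes as a dotted line (0.43 left, -0.04 right). Points of every gene lie on both sides of 0 in both comparisons.

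Of the repressors, Zeb1 ran from 0 over a median of 14.5 to 3511 CPM in Mki67-high cells and from 0 over a median of 3.45 to 3338 CPM in Mki67-low cells. The cell at 3511 CPM was among the oligodendrocyte lineage cells and also held 2014 CPM of granule lineage genes. The difference in mean log2(CPM + 1) was 0.83 ± 2.77 (range -3.30 to 4.30), higher in 4 of 6 library groups (exact p = 0.438). The percentage with at least 1 count was 71.9% in Mki67-high and 81.3% in Mki67-low cells, and with at least 5 counts it was 62.5% and 56.0%, so the order of the classes turned with the minimum. The difference is within the spread by either measure.

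Zeb2 was found in a higher percentage of Mki67-high than of Mki67-low cells, while its highest levels were in Mki67-low cells. It ran from 0 over a median of 8.79 to 1058 CPM in Mki67-high cells and from 0 over a median of 0.409 to 7077 CPM in Mki67-low cells. At least 5 counts were found in 66.3% ± 18.96 of Mki67-high and 37.03% ± 15.4 of Mki67-low cells (mean ± SD of 6 library groups), in cells 20 of 32 and 29 of 75. The percentage was higher in 6 of 6 groups by 6.15 to 53.3 points (mean 29.2, exact sign-flip p = 0.03125, adjusted over all genes 0.342). Of all genes, 8.76% were higher in 6 of 6 groups with this minimum, which was 1 of the alternatives to the minimum of 1 count.

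The same direction of Zeb2 in 6 of 6 groups, which was not a call, held at some measures and not at others. With at least 5 counts after thinning the difference was 32.3 points (6 of 6), and with at least 1 count after thinning 22.0 points (higher in 3 groups, lower in 2, exact p = 0.25). It was 29.1 points at a minimum of 1 CPM (6 of 6). It was 25.6 points at 10 CPM (5 of 6, exact p = 0.0938) and 4.18 points at 100 CPM (4 of 6, exact p = 0.688). Without the cells that carried astroglial genes it was 26.1 points (higher in 5 of 6 and equal in 1, exact p = 0.0625), and without oligodendrocyte lineage cells as well 24.6 points (5 of 6, exact p = 0.0625). Without 3 cells of unusual depth or number of genes it was 26.7 points (5 of 6, exact p = 0.0625). With at least 1 count as deposited it was 21.0 points (5 of 6, exact p = 0.125). With the classes divided at 10 CPM of Mki67 it was 26.4 points (5 of 6, exact p = 0.0938), and against cells without a Mki67 count 42.7 points (3 of 5, exact p = 0.25). Mki67-high cells also had more genes with a count in 6 of 6 library groups, and the part of this in the result was not tested.

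By level, Zeb2 was 1.31 ± 1.64 higher in mean log2(CPM + 1) in Mki67-high cells (range -0.92 to 3.14; 5 of 6 groups, exact p = 0.156). Its mean CPM was 69.9 in Mki67-high cells against 203 in Mki67-low cells, and 110 in the latter without the top cell. Of the astroglial and oligodendrocyte lineage cells, the 3 Mki67-low ones held 1421, 529 and 293 CPM of Zeb2. The 5 Mki67-high ones held 2.58 to 208 CPM. The log2 fold change of the sums was -0.68 ± 1.06 (SE, edgeR adjusted p = 0.916). Without the astroglial and oligodendrocyte lineage cells it was -0.38 (edgeR adjusted p = 0.977).

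**Figure D4:**
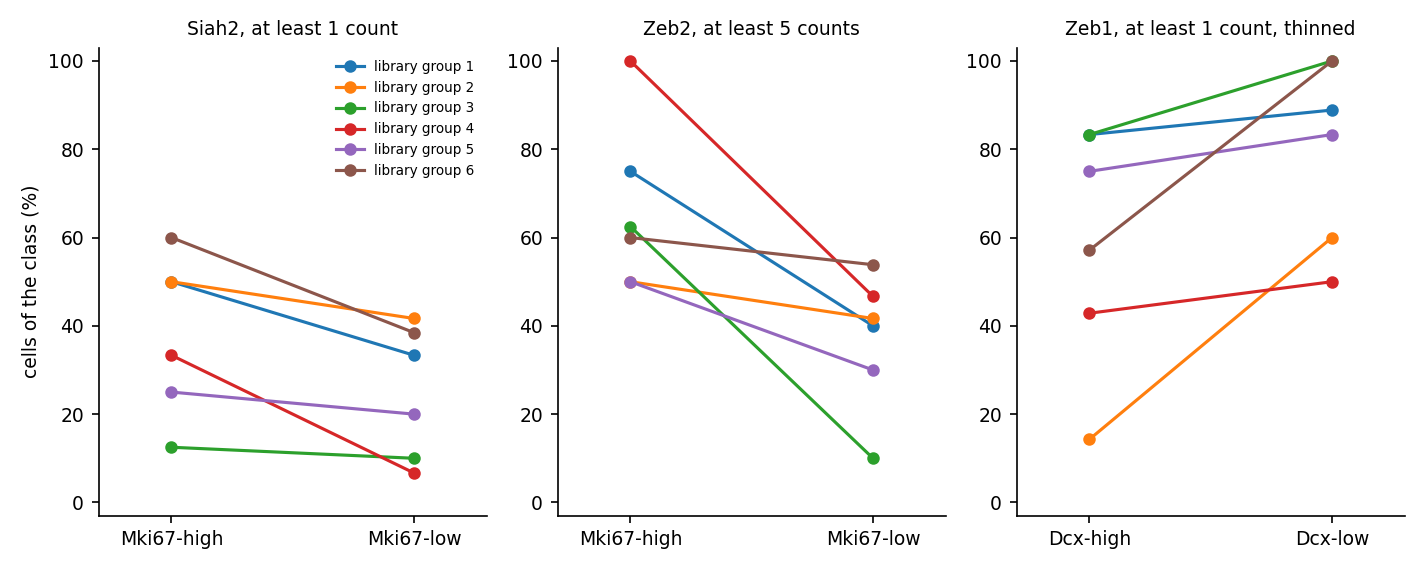
Percentage of cells with Siah2 (at least 1 count) and Zeb2 (at least 5 counts) in Mki67-high and Mki67-low cells, and with Zeb1 (at least 1 count after thinning to 1110182 counts per cell) in Dcx-high and Dcx-low cells, with a line for each of 6 library groups. Each gene is drawn at the measure that gave it 1 direction in 6 of 6 groups, chosen after the values were seen, so every line falls to the right for Siah2 and Zeb2 and climbs for Zeb1; at other measures the groups were divided (Siah2 with at least 5 counts higher in 4 of 6, Zeb2 with at least 1 thinned count higher in 3 and lower in 2, Zeb1 with at least 5 counts lower in 4 and higher in 2).

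The second comparison asked, within Mki67-low cells, whether cells with more Dcx differ from cells with less. No gene was called in the sums (0 of 6677, 0%, edgeR quasi-likelihood test), and 340 genes had an unadjusted p under 0.05. DESeq2 called 403 genes (2.52% of 15971), and none of the 7 members with a result was among them (Pard3 had no p). As in the first comparison, this does not show that the genes were alike. On mean log2(CPM + 1), none of the 8 had the same sign in 6 of 6 library groups, against 2.95% of 8168 genes. The median difference of the 8 genes was -0.11 and that of all genes -0.04. Jam3 did not pass the filter on low sums.

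Siah1a and Siah2 differed by 0.01 ± 2.61 (range -3.61 to 4.40) and 0.41 ± 1.39 (range -0.84 to 2.76) in mean log2(CPM + 1), each higher in 3 of 6 library groups. Siah1a had counts in 18 of 37 Dcx-high and 17 of 38 Dcx-low cells, and Siah2 in 10 and 9. The Siah1a means lay far apart between library groups. They were 84.2 CPM in Dcx-high against 0.0602 CPM in Dcx-low cells of group 5, and 0.426 against 167 CPM in group 6. Single cells weighed heavily in these means. The Dcx-low cells of group 6 included the top Siah1a cell, at 936 CPM. In group 5 a single Dcx-high cell held 1362 of the 1754 Siah1a counts of its class.

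Pard6a was higher in Dcx-high cells in 5 of 6 library groups, by 1.10 ± 1.39 in mean log2(CPM + 1) (range -0.70 to 3.22; exact p = 0.0938, adjusted over all genes 0.886). It ran from 0 to 1314 CPM in Dcx-high and from 0 to 246 CPM in Dcx-low cells, and at least 5 counts were found in 11 of 37 and 5 of 38 cells. Without library group 2, which holds the top Pard6a cell, the difference was 0.68, and the log2 fold change of the sums went from 2.77 to 0.71. The Dcx-low cell at 246 CPM was among the oligodendrocyte lineage cells. Without astroglial and oligodendrocyte lineage cells the log2 fold change was 5.62 (edgeR adjusted p = 0.999). Without library group 4, which holds that cell, it was 5.60 (edgeR adjusted p = 0.973). Summed genes of inhibitory interneurons passed 500 CPM in 8 of the Dcx-high cells and 1 of the Dcx-low cells, and their part in the Pard6a difference was not tested. Pard3 differed by -0.14 ± 1.43 (range -1.61 to 1.75) and had counts in 10 of 37 and 13 of 38 cells. Jam3 differed by -0.71 ± 0.93 (range -2.21 to 0.10; exact p = 0.25), with at least 5 counts in 3 of 37 Dcx-high and 7 of 38 Dcx-low cells.

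Cdc42 had a log2 fold change of -1.76 ± 0.67 (SE) in the sums and was not called (edgeR unadjusted p = 0.0169, adjusted p = 0.942). It ran from 0 over a median of 99.1 to 3038 CPM in Dcx-high cells and from 0.549 over a median of 442 to 6767 CPM in Dcx-low cells. Means per library group were 348 ± 197 CPM in Dcx-high and 954 ± 391 CPM in Dcx-low cells. In mean log2(CPM + 1) the difference was -1.37 ± 2.37 (range -4.11 to 2.45), lower in 4 of 6 groups (exact p = 0.188). The 4 cells without a Cdc42 count were all Dcx-high.

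Zeb1 differed by -0.08 ± 2.96 (range -4.67 to 3.18) in mean log2(CPM + 1), lower in 4 of 6 library groups. After thinning, at least 1 Zeb1 count was found in 59.3% ± 27.2 of Dcx-high and 80.4% ± 20.9 of Dcx-low cells, lower in 6 of 6 groups (differences from -45.7 to -5.56 points, mean -21.0, exact sign-flip p = 0.03125, adjusted over all genes 0.989). Of all genes, 1.02% were lower in 6 of 6 groups by this measure. In counts as deposited the difference was -9.60 points (lower in 4 of 6, equal in 2, exact p = 0.125), and with at least 5 counts -11.9 points (4 of 6, exact p = 0.438). With at least 5 counts after thinning it was -2.66 points (lower in 3, higher in 2, exact p = 0.75). At 1 CPM it was -22.1 points (lower in 5 of 6, exact p = 0.156), at 10 CPM it turned to 2.20 points (higher in 3, lower in 2, exact p = 0.938), and at 100 CPM it was -2.63 points (exact p = 0.938). The highest levels of the classes were 3338 CPM in Dcx-high and 1909 CPM in Dcx-low cells.

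Zeb2 differed by -0.90 ± 2.49 in mean log2(CPM + 1) (range -2.50 to 4.08; exact p = 0.438). It was lower in Dcx-high cells in 5 library groups, between -2.50 and -1.18, and higher by 4.08 in library group 5. Without group 5 the difference was -1.89, a value with no test, since the group was left out for its sign. In group 5 its mean was 245 CPM in 4 Dcx-high cells and 0.257 CPM in 6 Dcx-low cells. Of these Dcx-high cells, 2 had at least 5 Zeb2 counts, and a single cell held 4727 of their 5266 counts.

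Across all 109 cells, no gene of the 8 followed Dcx or Mki67 closely. Spearman's rho with Dcx ran from -0.20 (Zeb2) to 0.19 (Pard6a), and with Mki67 from -0.11 (Pard6a) to 0.15 (Pard3). These are descriptions over cells that share libraries and depth. With the number of genes detected in a cell, rho ran from 0.05 (Pard6a) to 0.35 (Jam3), above 0 for each of the 8.

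**Figure D5:**
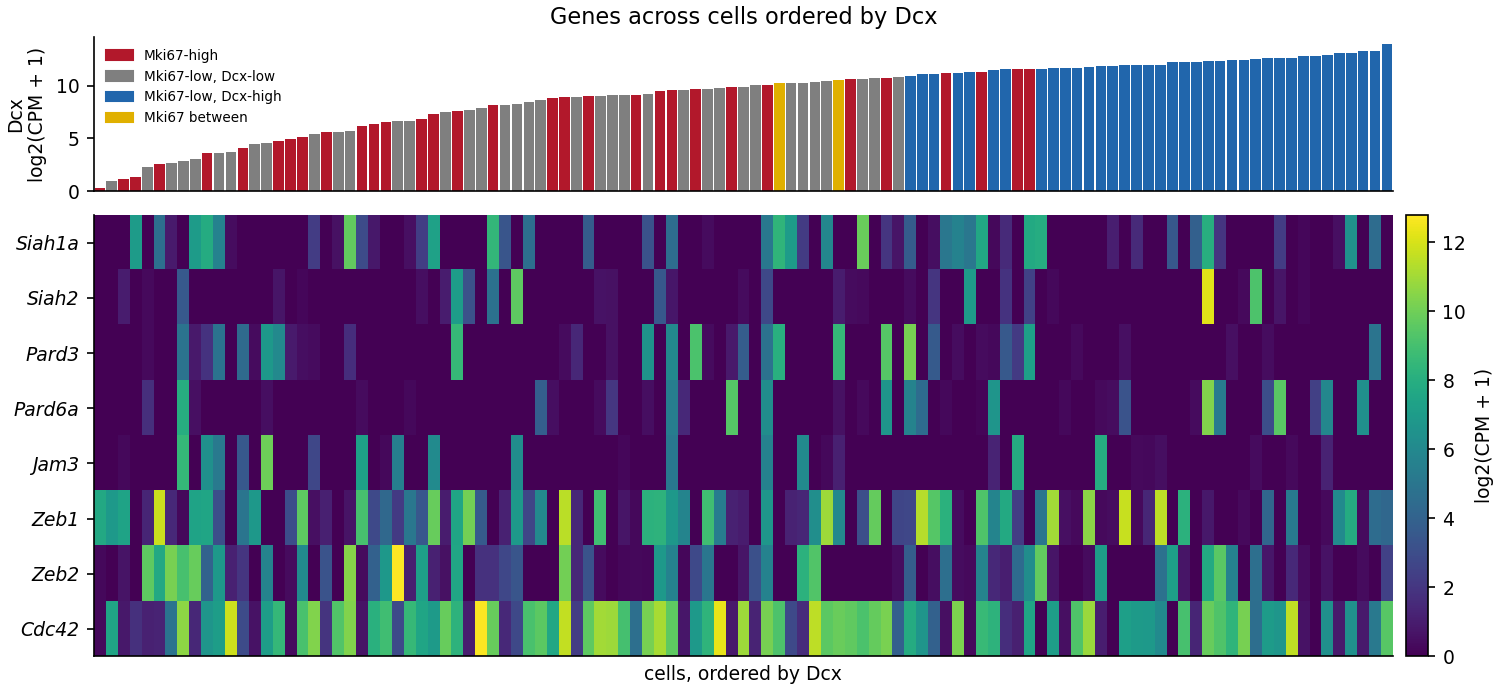
Cells ordered by their Dcx level (top, bars coloured by class) with the log2(CPM + 1) of each gene in the same cells below (colour scale). Cells with high levels of each gene are scattered along the order, and Spearman's rho with Dcx lies between -0.20 and 0.19.

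Within cells, rho over the 28 pairs of the genes ran from -0.08 (Pard6a and Zeb2) to 0.22 (Jam3 and Zeb2), again as a description. By a minimum of 5 counts some pairs shared more cells than others. The pairs named here are a few of the 28, and the share over other pairs of genes was not computed. Their rho was 0.16 for Siah2 and Pard3, 0.10 for Pard3 and Jam3, 0.22 for Jam3 and Zeb2 and -0.07 for Pard6a and Zeb1. The part of the number of genes detected per cell was not tested. Pard3 was found in 46.7% of the 15 cells with Siah2 and in 14.9% of the cells without (7 cells held both). Jam3 was found in 42.9% of the 21 cells with Pard3 and in 10.2% of the cells without, and Zeb2 in 72.2% of the 18 cells with Jam3 and 39.6% of those without. Zeb1 was found in 50% of the 20 cells with Pard6a and in 59.6% of those without.

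All 8 genes reached 5 counts in 2 cells. These were the 2 cells with the most genes with a count (13533 and 12684), both Mki67-high and both among the 4 with the astroglial genes. Without them, the percentages with and without the partner were 38.5% and 14.9% for Pard3 by Siah2, 36.8% and 10.2% for Jam3 by Pard3, 68.8% and 39.6% for Zeb2 by Jam3, and 44.4% and 59.6% for Zeb1 by Pard6a. A Mki67-high cell held a mean of 3.34 ± 1.82 of the 8 genes at 5 counts or more (SD over 32 cells), or 3.03 ± 1.402 without those 2 cells, and a Mki67-low cell 2.65 ± 1.38 (75 cells). In 3 cells none of the genes reached 5 counts.

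Genes with the most similar pattern over cells were taken from 8169 genes by Spearman's rho of CPM over 109 cells. For Siah2 these were Guk1, Pias1 and Wdr18 (rho 0.51, 0.44 and 0.43), and for Siah1a Vti1b, Ndufs6 and Odf2 (0.42, 0.38 and 0.37). For Pard3 they were Terf2, Ago3 and Ggh (0.46, 0.45 and 0.45), and for Pard6a Cyp39a1, Sox4 and Nomo1 (0.38, 0.38 and 0.37). Jam3 was most like Zkscan8, Neurod4 and Foxred1 (0.49, 0.47 and 0.46), and Cdc42 like BC005561, N6amt2 and Mettl17 (0.41, 0.39 and 0.38). Zeb1 was most like Gpc6, Lgr4 and Trip4 (0.39, 0.39 and 0.37), and Zeb2 like Qars, Atp13a3 and Ube3b (0.42, 0.40 and 0.40). The median rho over all genes lay between 0.05 and 0.09, and in sparse counts the highest of 8169 such values is no finding.

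Lists of partners of the 8 genes were followed through the same comparisons. No gene of the 5 lists was called in the sums in either comparison (edgeR), with the same limit as for the 8 genes. Of 14 Par complex and polarity partners with counts in at least 20% of cells, none had the same sign in 6 of 6 library groups in either comparison, and the median difference between Mki67 classes was 0.57. Of 20 Cdc42 regulators and effectors, Iqgap1, a scaffold that binds Cdc42, was higher in Mki67-high cells in 6 of 6, by 1.56 ± 1.13, and the list's median was 0.19. Of 8 adhesion genes, Cadm1, an adhesion molecule of the immunoglobulin family, was higher in 6 of 6 by 3.18 ± 2.36, with a list median of -0.22. Of 11 Siah partners, Kif22, a kinesin of mitotic chromosomes, was higher in 6 of 6 by 4.40 ± 2.51, with a median of 0.53. Of 11 Zeb partners, Hdac1, a histone deacetylase, was higher in 6 of 6 by 1.33 ± 0.82, with a median of 0.62. These 4 genes are set against the 10.2% of all genes with the same sign in 6 of 6 groups.

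Between Dcx-high and Dcx-low cells, 3 genes of the lists were higher in 6 of 6 library groups and none lower. These were Itsn1, an exchange factor for Cdc42, by 1.72 ± 0.74, the Cdc42 effector Cdc42ep3 by 1.44 ± 1.25, and the E-box factor Tcf12 by 1.73 ± 1.15 in mean log2(CPM + 1). They stood among 64 genes of the 5 lists tested by this measure, against a background of 2.95%. Median differences of the lists ran from -0.09 (Zeb partners) to 0.24 (Siah partners).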

How the data were processed

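RNA of 109 single cells was measured. Reads were mapped by the authors on mm10 (STAR 2.4.1d) and tallied per gene by HTSeq-count 0.6.1, and the deposited values are those raw counts, on no common scale. Which annotation and strand setting the tally used is not given in the sources used here. All 15973 genes of the table had counts in 3 cells or more, and rarer genes were not analysed here. No 2 cells held identical values. Molecular identifiers were not used, so limits cover counting error alone. No cell was removed and no doublet filter was run. The study names 6 batches without saying whether they are the library groups.

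CPM were computed from a cell's total count. Counts summed per class and library group were compared with edgeR 4.0.16 in R 4.3.3 (filterByExpr, TMM, quasi-likelihood test, Benjamini-Hochberg over all genes, threshold 0.01, the one the study used), without the genes that define a class. Differences in mean log2(CPM + 1), with a pseudocount of 1, and in percentage of cells were taken within library groups and tested by flipping their signs in all ways (exact, two-sided). Named genes are the 8 genes, the class markers, up to 4 genes a partner list called in the sums or with 1 sign in every library group and a difference of at least 1, and the 3 genes most like each of the 8. Tacc3 and Cdc20 were named after their values were seen. The 8 genes and the lists were chosen with earlier results of these data known. The alternatives were DESeq2 1.42.0, no filter, a threshold of 0.05, a library group block, other Mki67 and Dcx thresholds, a pseudocount of 10, a minimum of 5 counts, thinned counts, and leaving out library groups, 3 cells of unusual depth or gene number, or cells with astroglial genes. Leaving out cells with oligodendrocyte genes as well, the minimum levels tried for Zeb1 and Zeb2, the look at low counts, and leaving out the 2 cells with all 8 genes were added after the data were seen. The methods were tested on simulated data. The edgeR test on sums recovered 98% to 100% of genes changed 4-fold or 16-fold at a simulated coefficient of variation of 0.4. At 1.2 it recovered 0% of either, in both comparisons. The data had 171.5% between Mki67 classes and 184.1% between Dcx classes, so this test could miss even large changes. Positions are from GENCODE M21, and promoters from RefSeq (GRCm38.p6).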

Additional observations from a re-analysis of the deposited data

Results flagged for a closer look

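The difference of Zeb2 in mean log2(CPM + 1) between Dcx-high and Dcx-low cells was 4.08 in library group 5, while the other 5 library groups lay between -2.50 and -1.18. This value stood apart from the other 5 by Dixon's test at 95%, which flags about 1 in 20 sets by chance, and it was the only one of the 16 sets of differences tested to do so. It rests on 4 Dcx-high and 6 Dcx-low cells. Of the Dcx-high cells, 2 had at least 5 Zeb2 counts, with 4727 and 538 of the 5266 counts of their class. Without library group 5 the mean difference was -1.89.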

How the results depend on the processing

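The main limit is the number of library groups and the sparseness of the counts. A single cell held up to 53.2% of a gene's counts, and a Mki67 class held 3 to 15 cells per library group. No alternative run on the sums called any of the 8 genes that had a result in it. DESeq2 gave none for Pard3 between Dcx classes. The lowest adjusted p was 0.171 between Mki67 classes and 0.129 between Dcx classes (both DESeq2). With this spread that is no sign that the genes were alike. No alternative of mean log2(CPM + 1) gave an exact sign-flip p under 0.0625. Without 1 library group, or against cells without a Mki67 count, 5 groups remain and no smaller p is possible. Without 1 library group this limit was reached in both comparisons.

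Between Mki67 classes, 2 genes were called in the sums (edgeR). The number was 6 at an adjusted p of 0.05, 372 in DESeq2, and 0 with a replicate block or against cells without a Mki67 count. It was 1 without astroglial cells, without astroglial and oligodendrocyte lineage cells, and without 3 cells of unusual depth or gene number, and 0 to 1 without 1 library group. Between Dcx classes 0 genes were called, and 403 in DESeq2. The cause of the gap between edgeR and DESeq2 was not tested. Library group numbers are shared by the classes. The sums of 1 library group deviated together by a correlation of 0.04 to 0.12 between Mki67 classes and 0.02 to 0.07 between Dcx classes. They were therefore not treated as pairs in the main test on sums. The sign-flip tests did pair the classes, since their differences were taken within library groups. With the replicate block, log2 fold changes reversed to -1.43 for Siah1a and -0.46 for Zeb1 between Mki67 classes and to -0.83 for Siah2 and -4.63 for Pard3 between Dcx classes.

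Other log2 fold changes of the sums that reversed were Pard6a without astroglial and oligodendrocyte lineage cells (0.21), Zeb2 against cells without a Mki67 count (1.13) and Siah1a with Dcx classes of all cells (0.59). Without 1 library group, log2 fold changes between Mki67 classes ran from -0.42 to 0.61 for Siah1a, -1.97 to 1.07 for Pard6a, -0.50 to 2.81 for Jam3 and -0.064 to 1.08 for Zeb1. Between Dcx classes they ran from -2.78 to 0.020 for Siah1a and from -0.035 to 2.62 for Siah2.

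Differences in mean log2(CPM + 1) between Mki67 classes reversed against cells without a Mki67 count for Siah1a (-0.73) and Siah2 (-0.10), without astroglial cells for Siah2 (-0.10) and Cdc42 (-0.12), without oligodendrocyte lineage cells as well for Siah2 (-0.067), and with a pseudocount of 10 for Siah2 (-0.11). Between Dcx classes they reversed for Siah1a without astroglial cells (-0.047) and with a pseudocount of 10 (-0.084), for Siah2 with Dcx classes of all cells (-0.020), and for Zeb1 by tertiles of Dcx (0.094) and with a pseudocount of 10 (0.20). Without 1 library group, values between Mki67 classes ran from -0.020 to 0.65 for Cdc42, -0.75 to 0.15 for Pard6a, -0.0050 to 0.87 for Siah1a and -0.34 to 0.32 for Siah2. Between Dcx classes they ran from -0.51 to 0.16 for Pard3, -0.87 to 0.73 for Siah1a, -0.060 to 0.66 for Siah2 and -0.73 to 0.84 for Zeb1.

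The percentage of cells with Siah2 was 13.5 points higher in Mki67-high cells (exact sign-flip p = 0.03125). That p was lost without astroglial cells (7.38), without oligodendrocyte lineage cells as well (8.10) and without 3 cells of unusual depth or gene number (9.70). It was also lost with at least 5 counts (9.69) and in thinned counts (11.2). The difference ran from 10.8 to 15.6 without 1 library group. Against cells without a Mki67 count, which 5 library groups held, it was 21.3. Over 5 groups no p under 0.0625 is possible, so these last settings could not keep the p. At a minimum of 5 counts the Mki67 difference reversed for Siah1a (4.81) and Zeb1 (8.77), and in thinned counts it reversed for Zeb1 (4.82). For Zeb2 (29.2) at a minimum of 5 counts it reached the smallest possible exact sign-flip p, 0.03125 (adjusted over all genes 0.342). Each gene was tried at several measures, so a single p at this limit is no call. Without 1 library group the Mki67 difference with at least 1 count ran from -14.6 to 3.27 points for Siah1a. Between Dcx classes, differences reversed by tertiles for Siah2 (-10.6), Jam3 (1.90) and Zeb2 (-8.33), with Dcx classes of all cells for Siah2 (-4.06) and Zeb2 (-14.5), without astroglial cells for Jam3 (1.14), without oligodendrocyte lineage cells as well for Jam3 (1.87), and for Zeb2 with at least 5 counts (-11.0) and in thinned counts (-3.49). In thinned counts Zeb1 (-21.0) reached the smallest exact sign-flip p, 0.03125 (adjusted over all genes 0.989). Without 1 library group the differences ran from -7.30 to 3.81 for Jam3, -20.8 to 2.38 for Pard3, -6.64 to 18.8 for Siah1a, -3.93 to 10.2 for Siah2 and -6.83 to 4.83 for Zeb2.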
